A study of Zea mays with 8 samples.

Results

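The genes described here encode subunits of Polycomb repressive complex 2 (PRC2), a chromatin regulator of imprinted genes in endosperm. They are 3 of the 39423 genes of the expression table, chosen by gene ID: fie1 (GRMZM2G118205), fie2 (GRMZM2G148924) and GRMZM5G875502. The choice listed GRMZM5G875502 under the name mez1. The RefSeq name table gives that ID the name mez2, and it gives the name mez1 to GRMZM2G157820. GRMZM5G875502 is therefore called mez2 below, and GRMZM2G157820 was followed beside the 3 genes as mez1, an addition made after the values were seen. Each gene is the sum of its transcript rows, with 1 row for fie1, 6 for fie2, 3 for mez2 and 2 for mez1.

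PRC2 silences genes by methylating lysine 27 of histone H3, and in the endosperm of flowering plants it is known for keeping one parental allele of imprinted genes silent. Its core has a WD-repeat subunit of the FIE (ESC) family, a SET-domain methyltransferase of the E(z) family, a zinc-finger subunit of the EMF2 (VEF) family and a histone-binding subunit of the MSI1 family. In maize, fie1 and fie2 encode FIE subunits and the mez genes encode E(z) methyltransferases. fie1 is known as an endosperm gene that is expressed from the maternal allele, fie2 is known from embryo and other tissues as well, and mez1 is known as a maternally expressed imprinted gene of endosperm.

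The 8 RNA-seq libraries came from maize (Zea mays) endosperm of the W22 line, taken 12 days after pollination, with 4 from pools of kernels labelled ded1-ref and 4 from pools of their normal siblings. Each ded1-ref pool is paired with a normal pool by a shared prefix of the sample name. The ded1 gene (GRMZM2G121570), a MYB transcription factor gene that is itself known as an imprinted gene, stood at 67.3, 69.7, 101 and 67.4 TPM in libraries labelled ded1-ref (replicates 1 to 4), against 42.0, 40.2, 38.5 and 37.0 TPM in the normal libraries. It was thus higher, not lower, under the mutant label, and the labels do not say what the lesion does to the transcript, so directions below refer to libraries as labelled. The libraries held 10536845 to 20725033 reads, as recovered from the deposited tables. TPM is a share of each library's transcripts corrected for transcript length, so genes can be compared with each other on it, but a rise of some abundant genes lowers all others. The 26 zein storage protein genes matched by name took 38.1% to 43.1% of all TPM in libraries labelled ded1-ref and 29.5% to 32.2% in the normal ones. The median tested gene was lower by a log2 change of -0.68 on the TPM scale under the mutant label. With TPM set again without those zein genes it still moved by -0.54, and the cause was not tested. Each gene was therefore also read on scaled TPM, divided by median-of-ratios factors, where the median change was -0.0031. The words rose and fell are kept for genes that passed limma at an adjusted p of 0.05, with one sign, on TPM and on scaled TPM.

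Among the genes followed here, 1 FIE gene and 1 E(z) gene carried almost all PRC2 transcript of these subunit types in both genotypes. fie1 was the most abundant of the PRC2 genes followed, at 119 ± 10.4 TPM in libraries labelled ded1-ref and 126 ± 19.7 TPM in normal libraries (SD, n = 4). Its paralog fie2 stood at 0.458 ± 0.149 TPM under the mutant label and 0.594 ± 0.0722 TPM in normal libraries. fie1 thus made up 99.5% to 99.8% of fie1 plus fie2 TPM in libraries labelled ded1-ref and 99.5% to 99.6% in normal libraries. Of the E(z) genes, mez1 stood at 36.6 ± 10.6 and mez2 at 0.0261 ± 0.0205 TPM under the mutant label, against 46.7 ± 6.63 and 0.0640 ± 0.0588 TPM in normal libraries. mez1 made up 99.2% to 99.7% of mez1, mez2 and mez3 TPM in libraries labelled ded1-ref and 99.3% to 99.7% in normal libraries. How reads that match paralogs were assigned is not given in the sources used here, so the low values of fie2, mez2 and mez3 are uncertain in size. Both parental alleles are summed in every value, since the tables hold no allelic counts.

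**Figure D1:**
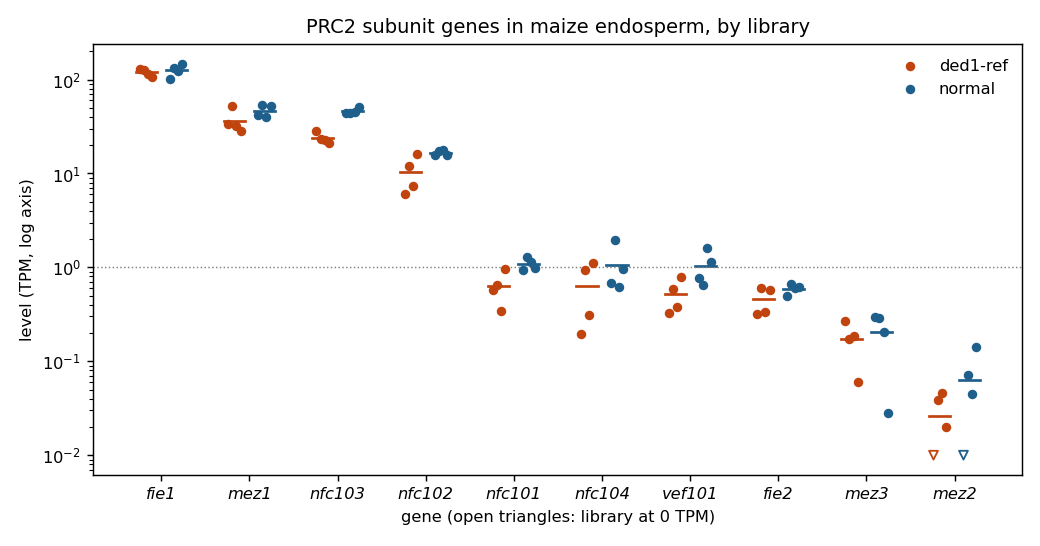
Level of each PRC2 subunit gene in every library, in TPM on a log axis. Points are libraries, short lines are group means, orange is ded1-ref, blue is normal, open triangles at the bottom are libraries at 0 TPM, and the dotted line marks 1 TPM. mez1 is GRMZM2G157820 and mez2 is GRMZM5G875502. fie1 lies above 100 TPM in all 8 libraries, while fie2 lies below 1 TPM in all 8.

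The PRC2 genes other than the 3 chosen and mez1 were matched by symbol, so a subunit gene without a matched symbol is not covered. Ordered by level per length, the PRC2 genes followed here ran in libraries labelled ded1-ref from fie1 at 119 through mez1 at 36.6 and nfc103 at 23.9 ± 3.13 to nfc102 at 10.3 ± 4.59 TPM (SD, n = 4). Below these, nfc104, nfc101, vef101 and fie2 lay between 0.458 and 0.641 TPM on average and were not separated by their spread, and mez3 at 0.173 ± 0.0860 and mez2 followed. In normal libraries the first 4 genes came in the same order, but mez1 and nfc103, at 46.7 ± 6.63 and 46.3 ± 3.51 TPM, did not differ beyond their spread. There nfc101, nfc104 and vef101 at 1.096 ± 0.166, 1.05 ± 0.614 and 1.04 ± 0.430 TPM lay within each other's spread. They were followed by fie2, then by mez3 at 0.203 ± 0.124 TPM and mez2, and the last pair overlapped in range. By rank among all 39423 genes, fie1 stood at places 328 to 472 in the libraries labelled ded1-ref and at places 537 to 762 in normal libraries, and these ranges do not overlap.

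The share of the transcriptome taken by fie1, the endosperm FIE gene, overlapped between the genotypes, while the median gene was lower under the mutant label. It stood at 129, 126, 115 and 106 TPM in libraries labelled ded1-ref (replicates 1 to 4), against 101, 132, 122 and 148 TPM in the normal libraries. The groups overlap on this scale, and 1 of 4 pairs was higher under the mutant label. The log2 change was -0.07 ± 0.15 (SE; limma adjusted p = 0.675), on a scale where 69.8% of the 13671 tested genes were called lower and 3.53% higher, so fie1 neither rose nor fell by the rule used here.

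Against the median gene, fie1 was higher in every library labelled ded1-ref than in any normal one. As a multiple of the median tested gene it stood at 30.5, 22.0, 31.0 and 23.2 in the libraries labelled ded1-ref, against 13.7, 15.5, 14.9 and 18.9 in the normal libraries. Scaled TPM gave 161 ± 33.5 under the mutant label and 93.5 ± 12.5 in normal libraries (SD, n = 4), higher in 4 of 4 pairs. The log2 change on this scale was 0.77 ± 0.17 (SE; limma adjusted p = 0.0120), where 12.3% of tested genes were called higher and 10.6% lower. fie1 was the only one of the 3 chosen genes that passed the filter for testing. The call was lost without replicate 1 (0.62, adjusted p = 0.0700) and without replicate 3 (0.67, adjusted p = 0.0503). It was also lost when TPM were set again without the 26 zein genes matched by name (0.14, adjusted p = 0.393). Any zein gene without such a name stayed in, and the median gene still moved by -0.54 on that scale. The authors' deposited table gives the fie1 transcript a log2 fold of 0.77 with a standard error of 0.19 and an adjusted p of 8.2e-04. That table was made from the same 8 libraries, with a size factor for each, so it is not independent of the scaled test.

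**Figure D2:**
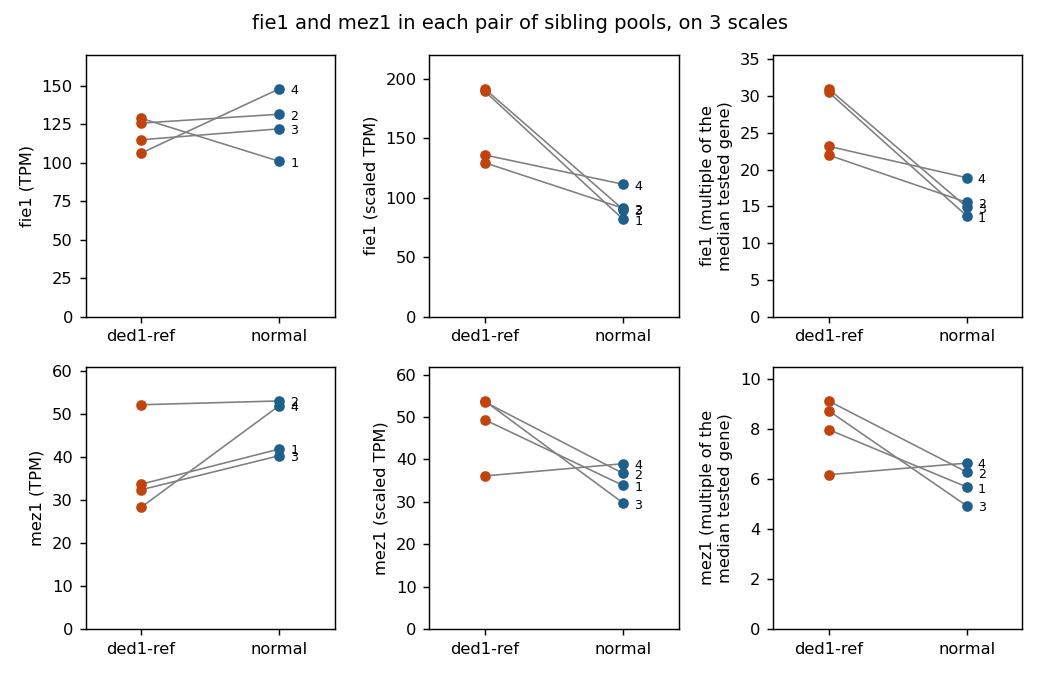
fie1 (top row) and mez1, GRMZM2G157820 (bottom row), in each library as TPM, as scaled TPM and as a multiple of the median tested gene of that library, on axes that start at 0. Grey lines join the ded1-ref pool (left, orange) to its normal sibling pool (right, blue), and digits are replicate numbers. The fie1 groups overlap as TPM and do not overlap on the other scales, and the mez1 groups overlap on all of them.

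Markers of the cell types of the kernel were read beside fie1. Of the starchy endosperm list, 14 genes were matched and 13 tested, of which 1 rose and 1 fell. Of all tested genes, 3.53% rose and 10.6% fell. The gene that rose was the alpha zein gene z1C2, at 55738 ± 3589 TPM under the mutant label and 37326 ± 2989 TPM in normal libraries, and it held most of the summed level of the list. The gene that fell was fl3, at 178 ± 115 TPM under the mutant label and 5794 ± 1178 TPM in normal libraries. On TPM, 9 of the 13 were called lower, as were 69.8% of all tested genes. The gene gz50 passed on scaled TPM alone, with a log2 change of 1.06 (limma adjusted p = 0.00454). Its change on TPM was 0.22 (limma adjusted p = 0.123). Of the rest, the starch branching enzyme gene ae1 (GRMZM2G032628) had a scaled log2 change of 0.0092, and the sucrose synthase gene SH-1 had one of -0.63 (limma adjusted p = 0.979 and 0.148). The list summed to 70732 to 80174 TPM in libraries labelled ded1-ref and 68543 to 74752 TPM in normal libraries, and to 78068 to 133501 against 48390 to 55512 on the scaled scale.

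Of the basal transfer layer list, 10 genes were matched and 6 tested, and 6 fell, where 10.6% of all tested genes fell. Among them tcrr-1, at most 0.443 TPM under the mutant label, met the filter through the normal libraries alone. The 10 matched genes summed to 151 to 292 TPM under the mutant label and 490 to 1221 TPM in normal libraries, without overlap. On the scaled scale they summed to 176 to 486 against 368 to 901, where the groups overlap. Maternal kernel tissue markers, 5 matched and none tested, summed to 0.563 to 3.41 TPM under the mutant label and 0.868 to 6.46 TPM in normal libraries. Within that list the pigment genes A1 and P averaged 0.488 and 0.238 TPM in libraries labelled ded1-ref, above 0 in all 4, and were at 0 TPM in the 4 normal libraries. The genes m6, MADS37 and mpik32a averaged 0.830, 0.362 and 0.0896 TPM under the mutant label, against 2.16, 0.767 and 0.400 TPM in normal libraries. All of them overlapped between the groups. The tissue that A1 and P transcripts came from was not tested. Of the aleurone list, 9 genes were matched and 7 tested, of which 3 rose and none fell, where 3.53% of all tested genes rose and 10.6% fell. Those that rose were c1, bronze-2 and a2. They averaged 5.94, 2.51 and 8.08 TPM under the mutant label, against 2.52, 0.169 and 0.0783 TPM in normal libraries. Of these, bronze-2 and a2, at most 0.393 and 0.186 TPM in normal libraries, met the filter through the libraries labelled ded1-ref alone. Another 3, dek1, Sal1 and IDDveg9, were called lower on TPM, where 69.8% of all tested genes were, and passed in neither direction on scaled TPM. Their log2 changes were -0.82, -0.82 and -1.48 on TPM and -0.06, -0.08 and -0.68 on scaled TPM. The last tested gene, cr4, passed on neither scale (-0.46 on TPM and 0.21 on scaled TPM). Among 3 tested markers of the zone around the embryo, no gene passed on either scale. In bulk tissue, fewer cells of a type and less RNA per cell cannot be told apart, and the part of cell makeup in the fie1 value was not tested.

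fie2, the FIE gene of wider expression, was close to the limit of these libraries. It had 13, 20, 9 and 18 reads in the libraries labelled ded1-ref, against 13, 12, 17 and 14 reads in normal libraries. In TPM this was 0.321, 0.603, 0.339 and 0.570 under the mutant label, against 0.495, 0.666, 0.597 and 0.619 in normal libraries, and the groups overlap. It did not reach the filter of 1 TPM in 4 libraries. Without that filter the log2 change was -0.13 ± 0.12 on TPM (SE; limma adjusted p = 0.437) and 0.14 ± 0.11 on scaled TPM (limma adjusted p = 0.521). The summed reads, divided by size factors, came to 16.2 per library under the mutant label (exact Poisson 95% interval 12.4 to 20.9) and 12.1 in normal libraries (9.11 to 15.7). The intervals cover counting error only. On scaled TPM fie2 ranged from 0.471 to 0.729 under the mutant label and from 0.401 to 0.465 in normal libraries, higher in 4 of 4 pairs and without overlap. That difference did not pass the limma test above and rests on 9 to 20 reads per library. The share of all genes without overlap on this scale is not given here.

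The reads of fie2 lay mostly on 1 transcript model. Transcript 1 held 85.3% of them, with 48 reads under the mutant label and 51 in normal libraries. Transcript 5 held 8 and 5 reads in the same order of groups, and transcript 2 held 4 reads, all from the library labelled ded1-ref replicate 3. The remaining 3 models had no read.

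Embryo markers were checked beside fie2, because the embryo is known to express it. The embryo list had 12 matched genes, 4 of them tested, and summed to 243 to 460 TPM in libraries labelled ded1-ref and 298 to 528 TPM in normal libraries. Most of this sum was ole1, an oleosin gene of oil bodies, at 325 and 385 TPM on average in the same order. Among regulator genes of the list, wox2A was present in all 8 libraries, at 16.2 ± 4.01 TPM under the mutant label and 17.8 ± 1.92 TPM in normal libraries (scaled log2 change 0.64, limma adjusted p = 0.0130). vp1, which is also known from aleurone, was present in all 8 as well, at 0.554 and 0.418 TPM on average in the same order. wus1 and wox5B were at 0 TPM in all 8 libraries, and KN-1 and CADR1 reached at most 0.0412 and 0.125 TPM under the mutant label and were at 0 TPM in normal libraries. The dehydrin gene dhn1, too low for a test, averaged 2.69 ± 2.15 TPM under the mutant label and 0.331 ± 0.224 TPM in normal libraries. It ran from 0.842 to 5.67 TPM under the mutant label and from 0 to 0.491 TPM in normal libraries. MGL3 rose, at 19.1 ± 13.4 TPM under the mutant label and 6.17 ± 3.47 TPM in normal libraries. It was the 1 of the 4 tested genes that rose, and none fell, where 3.53% of all tested genes rose and 10.6% fell. On scaled TPM alone, 3 of the 4 were called higher, where 12.3% of all tested genes were. Among these was ole1, with a scaled log2 change of 0.60 (limma adjusted p = 0.0306). On scaled TPM the list summed to 404 to 676 under the mutant label and 224 to 389 in normal libraries, and its part in the fie2 values was not tested.

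mez2, an E(z) methyltransferase gene, was at or under the floor of detection in nearly every library. It had 0, 2, 2 and 1 reads in the libraries labelled ded1-ref, against 0, 2, 2 and 5 reads in normal libraries, all on transcript 1 of 3. The library labelled ded1-ref replicate 1 and the normal replicate 1, both at 0, allow a level of up to 0.0471 and 0.0728 TPM, the level of 3 reads. Summed over the groups it had 5 and 9 reads, or 1.35 and 1.94 per library after division by size factors (exact Poisson 95% intervals 0.439 to 3.15 and 0.886 to 3.68). Without the filter its log2 change on scaled TPM was -0.02 ± 0.04 (SE; limma adjusted p = 0.844). At this depth neither a level nor a difference of mez2 was detectable with any precision, and its ratio to fie1 or fie2 could not be formed in the libraries at 0.

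mez1 (GRMZM2G157820), the E(z) gene that these libraries do express, had a direction that depended on the scale and passed on neither. It stood at 33.6, 52.1, 32.3 and 28.2 TPM in libraries labelled ded1-ref, against 41.8, 53.0, 40.3 and 51.9 TPM in normal libraries. The library labelled ded1-ref replicate 2 was the highest of its group and lay within the normal range. The log2 change was -0.37 ± 0.16 on TPM (SE; limma adjusted p = 0.0524), lower in 4 of 4 pairs, and 0.45 ± 0.16 on scaled TPM (limma adjusted p = 0.0830), higher in 3 of 4 pairs. It passed on TPM only without replicate 2 (-0.49, adjusted p = 0.0391) and on scaled TPM only without replicate 4 (0.64, adjusted p = 0.0192). Transcript 2 held 99.3% of its reads. The authors' deposited table, made from the same 8 libraries, gives that transcript a log2 fold of 0.47 with a standard error of 0.18 and an adjusted p of 0.0542.

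**Figure D3:**
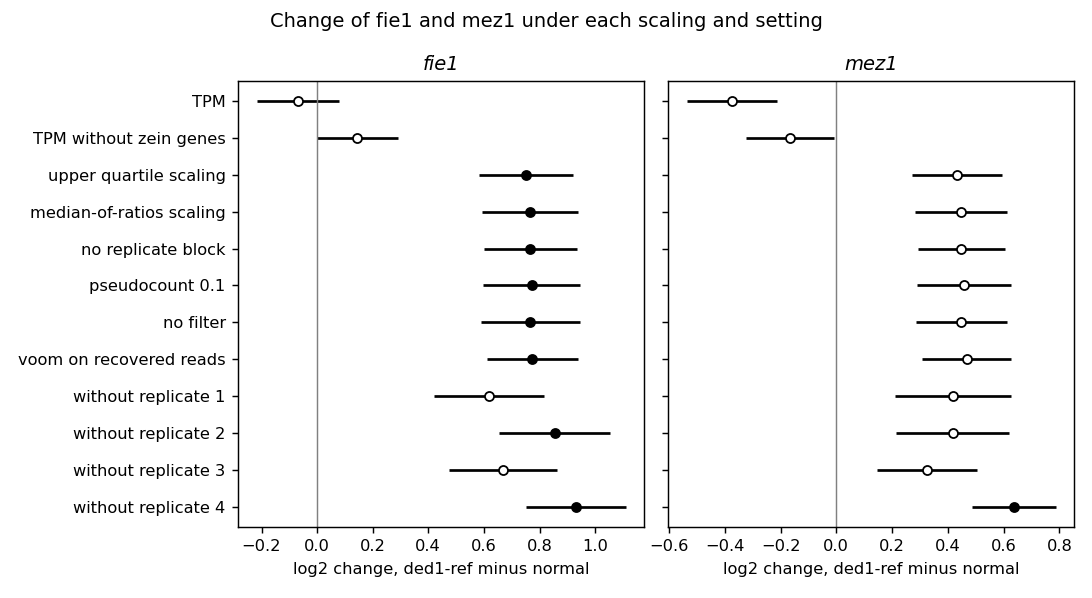
Log2 change of fie1 (left) and mez1, GRMZM2G157820 (right), ded1-ref minus normal, on TPM and under each scaling or setting of the scaled test. Points are estimates, bars are standard errors, and filled points passed an adjusted p of 0.05. For fie1 the estimates run from -0.07 on TPM to 0.93 without replicate 4, and for mez1 they lie below 0 on TPM and on TPM without zein genes and above 0 in the other settings shown.

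Ratios within a library do not depend on how libraries are scaled. The planned ratio, fie1 over fie2, was 284 ± 103.4 in the libraries labelled ded1-ref and 211 ± 18.9 in normal libraries (SD, n = 4; exact two-sided permutation p = 0.343). Another 7 ratios, among fie1, mez1, nfc102 and nfc103 and of fie1 to ded1, were chosen after the values were seen, and adjusted p-values are over all 8. fie1 over nfc103, an MSI1-type histone-binding gene, was 4.54, 5.37, 5.09 and 5.00 in the libraries labelled ded1-ref, against 2.29, 2.98, 2.67 and 2.88 in normal libraries. The groups do not overlap and 4 of 4 pairs were higher under the mutant label. The log2 difference was 0.89 ± 0.04 (SE of the paired differences). Its exact unpaired permutation p = 0.0286, the smallest that 4 against 4 libraries allow, became 0.114 after adjustment, so it failed the correction. With paired differences the exact permutation p was 0.125, the smallest that 4 pairs allow. fie1 over mez1 was 3.39 ± 0.663 under the mutant label and 2.70 ± 0.295 in normal libraries (exact permutation p = 0.171, adjusted 0.274). mez1 over nfc103 was 1.54 ± 0.466 and 1.01 ± 0.138 in the same order (exact permutation p = 0.0571, adjusted 0.152). fie1 over ded1 was 1.61 ± 0.342 under the mutant label and 3.21 ± 0.655 in normal libraries (exact permutation p = 0.0286, adjusted 0.114), lower in 4 of 4 pairs. With paired differences its exact permutation p was also 0.125. The ratios of fie1 and mez1 to nfc102 had exact permutation p-values of 0.143 and 0.343, and nfc103 over nfc102 had 0.714.

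**Figure D4:**
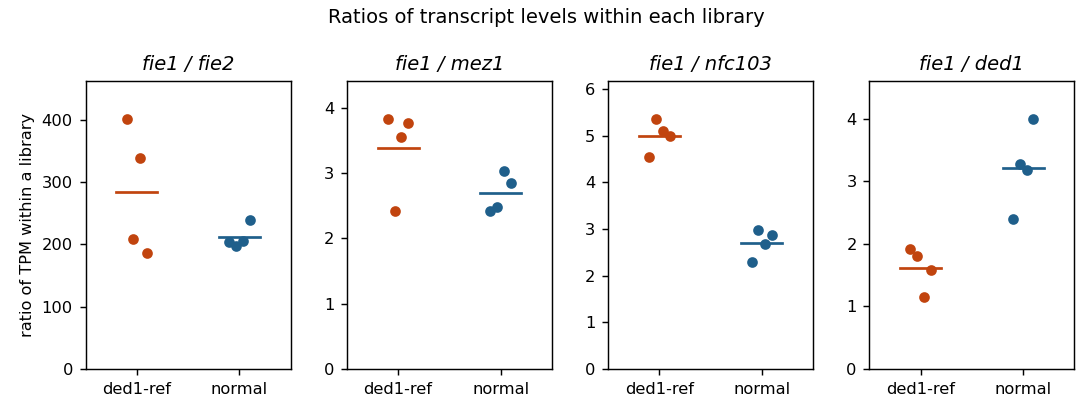
Ratio of TPM within each library for fie1 over fie2, over mez1 (GRMZM2G157820), over nfc103 and over ded1, with ded1-ref at left and normal at right. Points are libraries, lines are group means, and axes start at 0. fie1 over nfc103 lies between 4.54 and 5.37 in ded1-ref and between 2.29 and 2.98 in normal libraries.

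Of 6 other PRC2 genes matched by symbol, 2 reached the level for a test. Both were lower on TPM, as were 69.8% of all tested genes, and neither passed on scaled TPM. nfc103 (GRMZM2G023372) stood at 28.4, 23.4, 22.6 and 21.2 TPM in libraries labelled ded1-ref, against 44.1, 44.1, 45.6 and 51.5 TPM in normal libraries, without overlap. Its log2 change was -0.93 ± 0.16 on TPM (SE; limma adjusted p = 2.9e-04) and -0.11 ± 0.16 on scaled TPM (limma adjusted p = 0.657). nfc102 (GRMZM2G316113), of the same MSI1 family, stood at 5.98, 12.0, 7.36 and 16.1 TPM under the mutant label, against 15.6, 17.2, 17.9 and 15.9 TPM in normal libraries. Its groups overlap through the library labelled ded1-ref replicate 4, and its log2 change was -0.72 ± 0.22 on TPM and 0.05 ± 0.20 on scaled TPM (limma adjusted p = 0.0105 and 0.883). The TPM call of nfc102 was lost without replicate 1 (-0.55, adjusted p = 0.0551) and without replicate 3 (-0.57, adjusted p = 0.0577). The 4 genes too low for a test were nfc101, nfc104, mez3 and vef101, the EMF2-type subunit gene. vef101 (GRMZM2G157422) had 15 to 36 reads per library under the mutant label and 17 to 66 in normal libraries. The median change of the 2 tested genes was -0.83 on TPM and -0.03 on scaled TPM, beside -0.68 and -0.0031 over all tested genes.

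Of the other chromatin lists, the 2 genes abundant enough to test were lower on TPM, as were 69.8% of all tested genes. No symbol of the PRC1 and reader list matched a gene of the table. Of 3 retinoblastoma-related genes, whose products are known to bind MSI1-type proteins, RBR2 was tested, at 0.689 ± 0.233 TPM under the mutant label and 2.06 ± 0.526 TPM in normal libraries (log2 change -0.85 on TPM, limma adjusted p = 0.00165, and -0.41 on scaled TPM, adjusted p = 0.101). Its libraries labelled ded1-ref ran from 0.553 to 1.04 TPM, so RBR2 met the filter through the normal ones. Of 5 SET-domain genes sdg118 was tested, at 1.42 ± 0.285 TPM under the mutant label and 3.57 ± 0.503 TPM in normal libraries, and it passed on TPM alone (scaled log2 change -0.35, limma adjusted p = 0.171). The single histone demethylase gene matched, JMJ13, was too low for a test, at 0.409 TPM under the mutant label and 0.841 TPM in normal libraries.

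In the DNA methylation list, of 7 matched genes 6 were tested, 1 rose and none fell, where 3.53% of all tested genes rose and 10.6% fell. The gene that rose was rmr7 (GRMZM2G054225), a subunit gene of plant-specific RNA polymerases that act in RNA-directed DNA methylation. It stood at 14.3, 17.2, 7.06 and 15.0 TPM in libraries labelled ded1-ref, against 9.17, 7.08, 4.53 and 7.71 TPM in normal libraries, and was higher in 4 of 4 pairs. The groups overlap on TPM through the library labelled ded1-ref replicate 3. The log2 change was 0.80 ± 0.19 on TPM (SE; limma adjusted p = 0.00259) and 1.54 ± 0.14 on scaled TPM (limma adjusted p = 1.3e-04). The other 5 tested genes were lower on TPM and passed in neither direction on scaled TPM, though all 5 were called lower on TPM without zein genes, where the median gene moved by -0.54. Among them mop1, the RNA-dependent RNA polymerase gene of the same pathway, stood at 9.27 ± 1.98 TPM under the mutant label and 17.97 ± 1.82 TPM in normal libraries. dmt101 is the maintenance methyltransferase gene met1, and its gene models GRMZM2G333997 and GRMZM2G334041 stood at 4.88 and 2.24 TPM under the mutant label, against 9.98 and 4.07 TPM in normal libraries. The median change of the 6 was -0.79 on TPM and -0.09 on scaled TPM.

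The list of imprinted endosperm genes was written with earlier results of these libraries known, and it holds ded1 itself. Of 6 matched and tested genes, 1 rose, which was ded1, and 3 fell, where 3.53% of all tested genes rose and 10.6% fell. The median change of the 6 was -1.36 on TPM and -0.63 on scaled TPM. The auxin synthesis gene yuc (GRMZM2G091819) fell to 0.605, 0.775, 0.0887 and 0.466 TPM in libraries labelled ded1-ref, against 210, 205, 328 and 235 TPM in normal libraries. It thus met the filter of 1 TPM in 4 libraries through the normal libraries alone. A meg2 gene model (GRMZM2G088896), of the maternally expressed gene family of the transfer layer, fell to 1.03 ± 0.362 TPM under the mutant label, against 5.39 ± 2.11 TPM in normal libraries (scaled log2 change -1.02, limma adjusted p = 0.00485). This model had 6 to 11 reads per library under the mutant label and 18 to 57 in normal libraries, and it too met the filter through the latter. On scaled TPM its groups overlap, at 0.838 to 2.56 and 2.31 to 5.71. MEG1 (GRMZM2G354335), of the same family, fell to 16.5 ± 6.27 TPM, against 54.4 ± 22.0 TPM in normal libraries (scaled log2 change -0.81, limma adjusted p = 0.0248). The scaled call of MEG1 was lost without the replicate block (adjusted p = 0.144), without the filter (0.0794), without replicate 1 (0.102) and without replicate 2 (0.104). MEG1 is also 1 of the transfer layer markers whose sums are given above, and the part of that layer in its value was not tested. NRP1 (GRMZM2G062650), a NAC-type gene known to be maternally expressed, stood at 88.2, 76.2, 109 and 47.7 TPM under the mutant label, against 143, 162, 140 and 164 TPM in normal libraries, lower on TPM and not past the threshold on scaled TPM (log2 change -0.13, limma adjusted p = 0.752). The second meg2 model, GRMZM2G094054, had a scaled log2 change of -0.46 (limma adjusted p = 0.143).

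**Figure D5:**
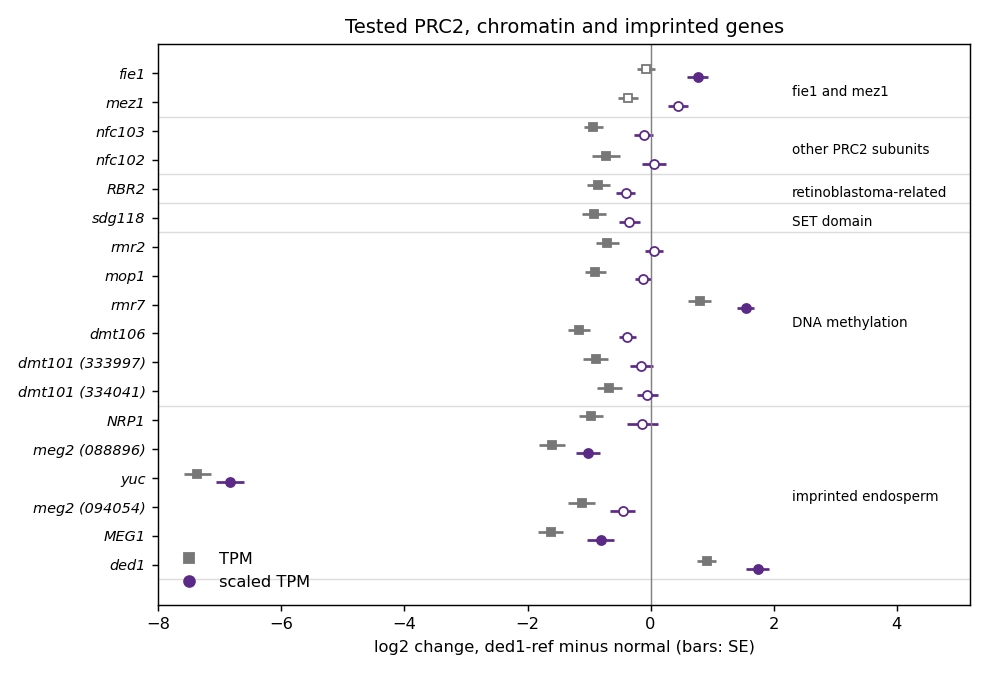
Log2 change, ded1-ref minus normal, of the tested PRC2, chromatin and imprinted endosperm genes on TPM (grey squares) and scaled TPM (purple circles). Bars are standard errors and filled symbols passed an adjusted p of 0.05. mez1 is GRMZM2G157820, and digits after a name are the last digits of the gene ID. In the plot rmr7 and ded1 have filled symbols above 0 on both scales, and yuc, MEG1 and the meg2 model GRMZM2G088896 have filled symbols below 0 on both.

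The tested genes with an informative name whose pattern was most like fie1 over the 8 libraries were TIFY30, akh2 and z1C1_4. Their Pearson r with fie1 on log2(scaled TPM + 1) was 0.956, 0.950 and 0.947 among 1223 such genes. These values describe 8 libraries that share their scaling factors and the difference between the groups. akh2 (GRMZM2G104546), an aspartate kinase and homoserine dehydrogenase gene, stood at 47.9 TPM under the mutant label and 48.2 TPM in normal libraries (scaled log2 change 0.81). z1C1_4, an alpha zein gene, had 77473 and 57956 TPM in the same order. For mez1 the closest genes were Atg7, CesA-6 and serk2 (r = 0.973, 0.943 and 0.927). The r between fie1 and mez1 was 0.810 on the same scale. No such genes are given for fie2 and mez2, whose patterns rest on 20 reads or fewer per library.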

How the data were processed

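Per the submitters' processing notes, reads were handled with cutadapt 1.1, Trimmomatic 0.22 and GSNAP 2013-07-20; the sources used here name no read counter or genome build, so no coordinates are printed. Per the labels, the kit does not mark strand, so reads of antisense partners cannot be told apart. The authors deposited TPM for 63293 transcript rows. They also deposited a comparison table which, per the file headers, has DESeq2 columns: a mean normalized signal, a log2 fold (ded1-ref/normal), the fold's standard error, a test score, and p-values with and without adjustment. The score has the opposite sign of the fold in 38727 of 38727 rows, so the header gave the direction.

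TPM rows were summed to 39423 genes, and the 13671 that reached 1 TPM in 4 or more libraries were tested with limma-trend (limma 3.58.1, R 4.3.3) on log2(value + 1), a scale that understates changes of low genes, with replicate as a block and Benjamini-Hochberg adjustment. The series text states the pairing; deviations of paired libraries from their group means correlated at 0.115, 0.333, 0.309 and 0.149. Whole reads were solved for from both tables (within 0.05 reads for 100% of 236228 values above 0) and used for depth, intervals and limma-voom. Intervals and floors cover counting error only. The limma fit was tested on simulated data. Names came from RefSeq, Zm-B73-REFERENCE-NAM-5.0, which matched 18771 genes. Named were the 3 genes, mez1, all other PRC2 genes, list genes past both tests (and some that were not, chosen after their values were seen) and the 3 genes most like fie1 and mez1. Members and lists were chosen with earlier results of these data known. Alternatives were no block, each replicate left out, a pseudocount of 0.1, no filter, upper quartile scaling, TPM without zein genes, voom, transcript rows and, for ratios, the highest transcript row.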

Additional observations from a re-analysis of the deposited data

How the results depend on the processing

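The scaled change of fie1 ran from 0.62 to 0.93 with 1 replicate left out; it fell short of the threshold without replicates 1 and 3, and also on TPM without zein genes (0.14). It kept its call without the replicate block (0.77, adjusted p = 0.00857), and under the other settings. The TPM change of fie1 ran from -0.21 to 0.067, changing sign without replicate 4 (0.067), and passed in none. For mez1 (GRMZM2G157820), added after the values were seen, the range with 1 replicate left out was -0.49 to -0.21 on TPM and 0.32 to 0.64 on scaled TPM, and on TPM without zein genes it was -0.17. The fie1 over fie2 log2 difference, 0.36, ran from 0.15 to 0.60 with 1 replicate left out and was 0.63 on the highest transcript row; with paired differences in place of the unpaired test (replicate block) its exact permutation p was 0.375, where 4 pairs cannot go below 0.125. nfc103 over nfc102 went the other way without replicate 4 (0.21, against -0.17; range -0.47 to 0.21). Among all genes, the scaled test called 618 higher and 7359 lower on TPM without the matched zein genes, against 1687 and 1444. On that scale the lower calls were 1 for the other PRC2 genes and 5 for DNA methylation, against 0 and 0. For retinoblastoma-related and SET-domain genes they were 1 each, against 0 and 0, and for imprinted genes 5, against 3. With 1 replicate left out the scaled test's lower calls ran from 921, without replicate 2, to 1205. The causes of these differences were not tested. Depth limits fie2, with 9 to 20 reads per library, and mez2, with 0 to 5.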
